A study of Mus musculus with 21 samples.

Results

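The H3K9 demethylases are the enzymes that take methyl groups off lysine 9 of histone H3. In bulk RNA of testis cells enriched for germ cells, from 12-day-old C57BL/6J (B6) males, mRNA of all 9 genes chosen here was detected. These are Kdm1a, Phf8, Kdm3a, Kdm3b, Jmjd1c, Kdm4a, Kdm4b, Kdm4c and Kdm4d. They were picked by symbol from a table of 37620 genes. The 9 symbols matched 10 rows, because Jmjd1c has 2 gene identifiers. Levels spanned from 75.2 FPKM for Kdm1a to 1.46 FPKM for Kdm4d, where FPKM counts the sequenced fragments per kilobase of transcript, scaled to the mapped reads of the library. Phf8, Kdm4a and Kdm4b were higher in samples 186wt and 343wt and lower in 444wt and 456wt, Jmjd1c and Kdm1a were highest in 444wt, and Kdm4d was lowest in 343wt.

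The study asked where PRDM9, the protein that marks recombination hotspots, binds in the genome and what chromatin allows it to act there, with H3K9 methylation among the marks it mapped. Of its 21 samples, the 12 RNA-seq libraries are used here, and the ChIP-seq, Affinity-seq and input samples were not analysed here. For these, testes of males aged 12 days post-partum (dpp) were digested with collagenase and trypsin to enrich germ cells. A library is named by a sample number, which is 186wt, 343wt, 444wt or 456wt, and by a suffix from 1 to 3. All are of strain C57BL/6J, of the same age and labelled as spermatocytes. The labels give no treatment, mutation or other condition that separates the numbers, do not spell out "wt", and do not say whether a number is 1 animal or a pool. The study describes 4 replicates, so the mean of the 3 libraries of a number was taken as 1 replicate (n = 4) for levels, shares and the order of genes. The limma tests below use the 12 libraries as observations, so their standard errors and p-values rest on the spread between the 3 libraries of a number, which may be repeat libraries of 1 sample, and they compare these 4 samples only. Correlations of log2 values across genes lay between 0.976 and 0.982 for libraries of the same number and between 0.948 and 0.970 for libraries of different numbers, and genes are not independent replicates.

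Methylation of H3K9 marks silent chromatin. Methyltransferases of the SUV39H, SETDB1 and EHMT type add it, proteins of the HP1 family bind it, and demethylases remove it. KDM1A (LSD1) is a flavin-dependent oxidase that acts on the lower methylation states of H3K4 and H3K9, while the other enzymes carry a Jumonji domain and need iron and 2-oxoglutarate. KDM3A and KDM3B remove the lower H3K9 methylation states, and JMJD1C is their relative. The KDM4 enzymes also remove the trimethyl state. PHF8 binds H3K4me3 through its PHD finger and is encoded on the X chromosome. In the testis, KDM3A is known for the activation of the Tnp1 and Prm1 genes in spermatids.

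On NCBI build 37 the genes lie apart from each other, with the exception that chromosome 4 carries 3 of them. Kdm1a (ENSMUSG00000036940) is at chr4:136106455-136158638, Kdm4a (ENSMUSG00000033326) at chr4:117809562-117852648 and Kdm4c (ENSMUSG00000028397) at chr4:73888401-74051764. Phf8 (ENSMUSG00000041229) is at chrX:147955215-148068402, Kdm3a (ENSMUSG00000053470) at chr6:71538968-71582899 and Kdm4b (ENSMUSG00000024201) at chr17:56465485-56542293. Jmjd1c (ENSMUSG00000037876) is at chr10:66558873-66719074 and Kdm4d (ENSMUSG00000053914) at chr9:14266992-14304926. The identifier of Kdm3b is ENSMUSG00000038773. The second Jmjd1c row (ENSMUSG00000075003, chr10:66558877-66559470) is a single exon of 594 bases inside the first, on the same strand. It had 0.367 FPKM, was at 0 in 2 of 12 libraries and is left out of the counts below (limma F-test, adjusted p = 0.710). Protein-coding genes on the opposite strand overlap one end of Kdm1a (Luzp1, 15.4 FPKM) and of Jmjd1c (Reep3, 5.70 FPKM). A strand setting is not given in the sources used here, so some fragments of these pairs may not be told apart.

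Promoter windows from RefSeq (GRCm38.p6, from 250 bases before to 50 bases after a gene's start) were matched by symbol for 7 of the 9 genes. Those shown belong to a pair of genes that were both high in 186wt and 343wt (Phf8 and Kdm4a), to Jmjd1c, which was highest in 444wt (the first of 2 windows), and to Kdm4d, the gene with the lowest level. Capitals mark every match, on either strand, to 7 strings of letters chosen after these sequences had been looked at. The strings are the TATA box TATAAA, the CCAAT box, the GC box GGGCGG, the cyclic AMP response element TGACGTCA, the string AAGATGGCG known from YY1 sites, the string CCGGAAG known from ETS sites, and the E-box CACGTG. A match on the other strand is printed as its reverse complement, and no match in these 4 windows overlaps another.
Phf8, chrX:151520422-151520721, plus strand: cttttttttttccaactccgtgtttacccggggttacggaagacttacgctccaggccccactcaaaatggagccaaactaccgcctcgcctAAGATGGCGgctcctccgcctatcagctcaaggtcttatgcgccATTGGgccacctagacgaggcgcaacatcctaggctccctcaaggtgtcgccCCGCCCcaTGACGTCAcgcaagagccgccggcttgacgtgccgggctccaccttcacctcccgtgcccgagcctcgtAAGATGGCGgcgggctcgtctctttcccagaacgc
Kdm4a, chr4:118179994-118180293, minus strand: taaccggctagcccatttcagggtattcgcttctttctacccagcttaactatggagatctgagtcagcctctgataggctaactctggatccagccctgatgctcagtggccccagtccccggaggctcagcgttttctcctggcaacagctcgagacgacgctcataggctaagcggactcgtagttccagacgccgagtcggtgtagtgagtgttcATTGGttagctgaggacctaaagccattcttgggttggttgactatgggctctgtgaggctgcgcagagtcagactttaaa
Jmjd1c, chr10:67126838-67127137, plus strand: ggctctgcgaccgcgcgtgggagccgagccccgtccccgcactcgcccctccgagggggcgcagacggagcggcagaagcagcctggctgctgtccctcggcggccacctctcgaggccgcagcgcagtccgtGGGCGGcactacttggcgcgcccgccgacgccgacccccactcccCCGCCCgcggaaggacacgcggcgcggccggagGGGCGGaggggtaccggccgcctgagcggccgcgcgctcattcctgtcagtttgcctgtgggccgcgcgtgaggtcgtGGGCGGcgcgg
Kdm4d, chr9:14500433-14500732, minus strand: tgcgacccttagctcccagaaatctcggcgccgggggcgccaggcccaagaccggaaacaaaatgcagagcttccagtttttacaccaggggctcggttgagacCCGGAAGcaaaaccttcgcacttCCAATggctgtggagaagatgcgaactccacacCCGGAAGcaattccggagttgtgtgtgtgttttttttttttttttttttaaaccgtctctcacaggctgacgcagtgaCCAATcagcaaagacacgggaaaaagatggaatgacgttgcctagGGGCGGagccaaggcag

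The window of Phf8 held 2 copies of AAGATGGCG, a string found in 1.40% of the 32851 promoter windows of the table, and 1 copy of TGACGTCA, found in 1.79%. It also held 1 CCAAT box (37.4% of windows) and 1 GC box (35.7%). The Kdm4a window held 1 match, a CCAAT box. The Jmjd1c window held 4 GC boxes and 47 CpG dinucleotides, more than 98.6% of windows. That of Kdm4d held 2 CCAAT boxes, 2 copies of the ETS string (8.86% of windows) and 1 GC box. The TATA box (13.6% of windows) was in none of the 11 windows matched to these genes, and the E-box (7.15%) was in 1 Kdm4c window alone. CpG counts were 26 for Phf8, 17 for Kdm4d and 13 for Kdm4a, against a median of 7 over all windows. These matches describe the letters of the windows, and binding was not measured here.

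Kdm1a had the highest level of the group, 75.2 ± 4.90 FPKM (mean ± SD, n = 4 sample numbers), above 93.8% of the 16578 protein-coding genes whose mean reached 0.1 FPKM. Phf8 followed with 47.9 ± 7.55 FPKM, above 89.0% of the 674 X-linked protein-coding genes that met this minimum, whose median was 8.27 FPKM. Next stood 5 genes between 26.8 and 30.5 FPKM. Kdm3b had 30.5 ± 1.45 FPKM, Kdm3a 29.4 ± 2.31 FPKM, Kdm4b 28.0 ± 4.24 FPKM, Kdm4a 27.3 ± 4.33 FPKM and Jmjd1c 26.8 ± 3.86 FPKM. Kdm4c, at 9.41 ± 0.699 FPKM, was near the median of 9.34 FPKM of the expressed protein-coding genes. Kdm4d, a member of its family without the PHD and Tudor domains of the other 3, was lowest with 1.46 ± 0.405 FPKM. In all, 7 of the 9 genes were above 21.1 FPKM, where the top quartile of expressed genes begins.

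**Figure D1:**
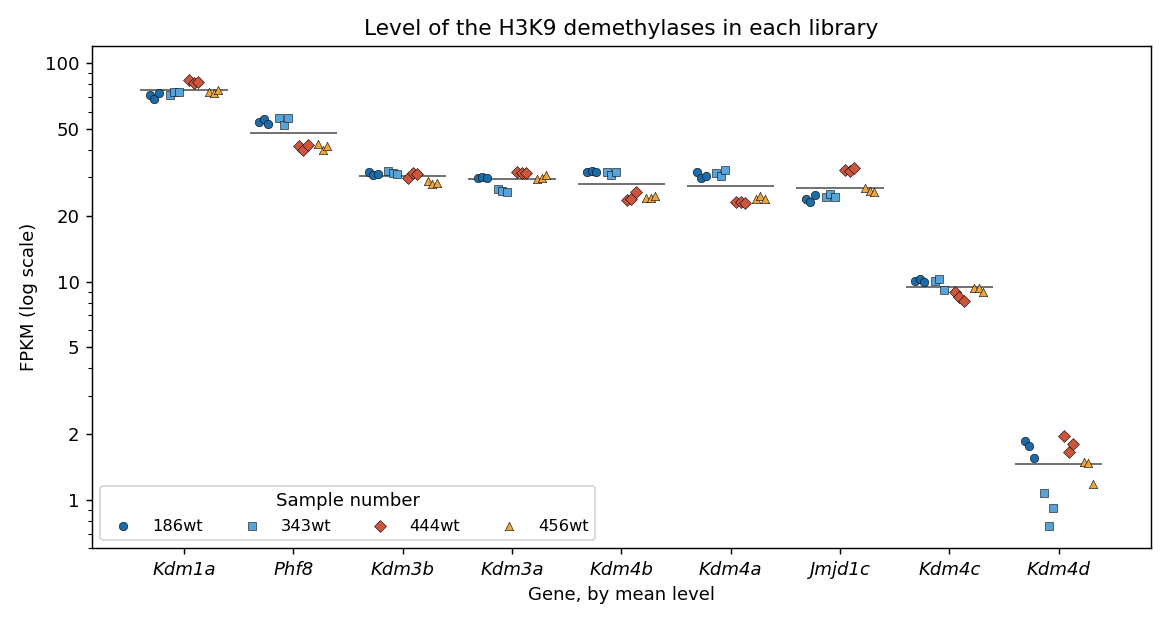
Level of each gene in FPKM on a log axis. Every point is 1 of 12 libraries, with shape and colour giving the sample number, and the grey line is the mean of the 4 numbers. Kdm1a lies between 68.3 and 83.6 FPKM, 5 genes share the band between 22.9 and 32.95 FPKM, and Kdm4d lies between 0.76 and 1.96 FPKM.

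The order of levels was compared between neighbours, gene by gene, within the same samples. Kdm1a exceeded Phf8 by 0.66 ± 0.30 on the log2(FPKM + 0.1) scale (mean ± SD of the difference, n = 4), in all 12 libraries. Phf8 in turn exceeded Kdm3b by 0.64 ± 0.19. Among the 5 genes of the middle, Kdm3b and Kdm3a differed by 0.05 ± 0.16, Kdm3a and Kdm4b by 0.08 ± 0.31, and Kdm4a and Jmjd1c by 0.02 ± 0.41, all less than their spread between samples. Kdm4b exceeded Kdm4a by 0.037 ± 0.035, in 10 of 12 libraries. Jmjd1c stood 1.49 ± 0.30 above Kdm4c, and Kdm4c 2.65 ± 0.47 above Kdm4d, in all 12 libraries. In the two-sided exact sign-flip permutation test over 4 numbers the smallest possible p is 2 in 16, so no pair could pass 0.05. The test gave that smallest p for the 5 pairs whose difference exceeded its SD and 0.625 to 1 for the other 3 (0.2 to 1 after Benjamini-Hochberg adjustment over 8 pairs). The pairs and their direction were set by the mean levels in these same samples, so agreement in direction is partly built in.

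The order in the middle changed from sample to sample. In 186wt it ran from Kdm4b (31.9 FPKM) through Kdm3b, Kdm4a and Kdm3a to Jmjd1c (24.0 FPKM). In 343wt Kdm3b (31.5 FPKM) was first and Jmjd1c (24.7 FPKM) again last. In 444wt the order turned round, with Jmjd1c (32.4 FPKM) first, Kdm3a and Kdm3b next, and Kdm4b and Kdm4a (23.1 FPKM) last. Sample 456wt had Kdm3a (29.9 FPKM) first and Kdm4a (24.1 FPKM) last. These 5 levels were at most 1.40 times apart within a sample.

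Summed over the 9 genes, the level was 284 FPKM in 186wt and in 343wt, 276 FPKM in 444wt and 259 FPKM in 456wt. Kdm1a made up 27.3 ± 2.32% of the sum (n = 4) and Phf8 17.3 ± 2.17%. Kdm3b held the steadiest share, 11.04 ± 0.106%. The KDM3 family (Kdm3a, Kdm3b and Jmjd1c) made up 29.97%, 29.0%, 34.3% and 32.6% of the sum in 186wt, 343wt, 444wt and 456wt. The KDM4 family (Kdm4a to Kdm4d) made up 26.1%, 25.9%, 20.9% and 22.7%. Kdm4d never reached 1% of the sum, with shares of 0.323% in 343wt to 0.655% in 444wt. Phf8 stood at 0.760 and 0.751 times the level of Kdm1a in 186wt and 343wt, and at 0.502 and 0.558 times in 444wt and 456wt.

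**Figure D2:**
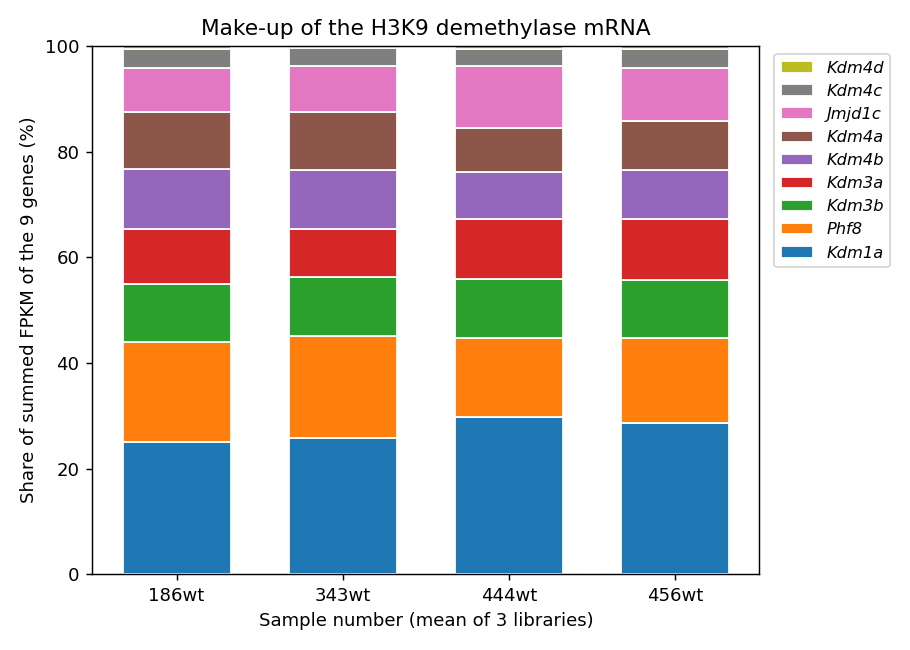
Share of each gene in the summed FPKM of the 9 genes, in percent, for each sample number (mean of 3 libraries). Kdm1a takes 24.9% to 29.8% and Phf8 14.9% to 19.3%, and the sliver of Kdm4d at the top is below 1%.

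How much each gene differed between the sample numbers was tested with limma on log2(FPKM + 0.1) over the 20795 genes whose mean reached 0.1 FPKM, by an F-test over the 4 numbers (8 residual degrees of freedom, from the libraries within a number) with Benjamini-Hochberg adjustment and a threshold of 0.05. All 9 genes passed. So did 58.2% of all genes tested, and 77.6% of those that reached a mean of 1 FPKM, in a fit restricted to them, so passing is the usual outcome at these levels. The median range between the highest and the lowest number was 0.39 on the log2 scale for the 9 genes. It was 0.55 over all genes tested, 0.47 for protein-coding genes and 0.42 for genes that reached a mean of 1 FPKM. Kdm3b had the smallest range, 0.15, and only 6.25% of the genes tested had a smaller one. Kdm4d had the widest, 0.92, and 74.9% of genes had a smaller one.

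**Figure D3:**
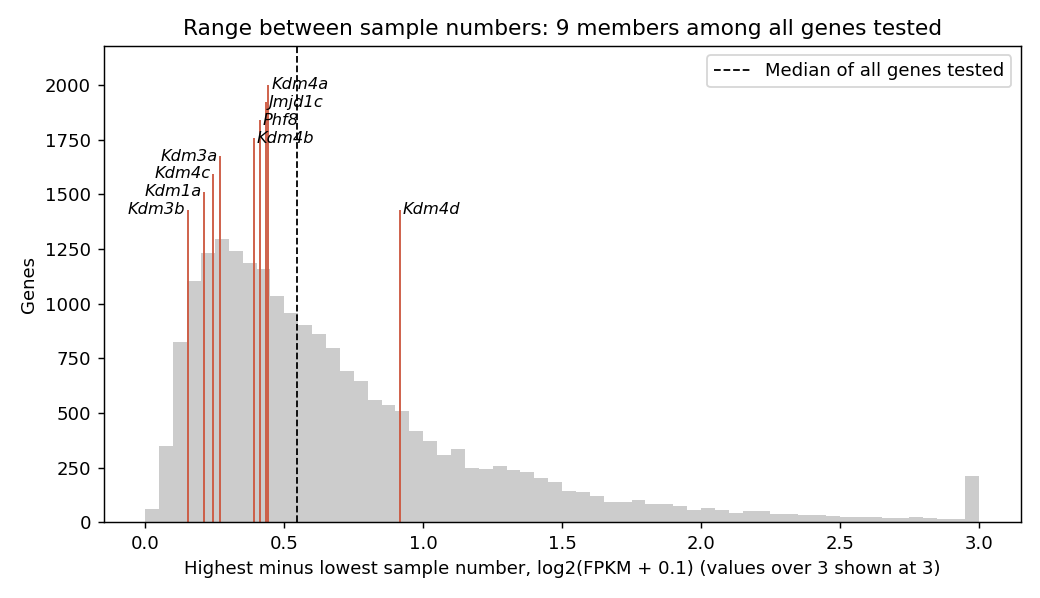
Histogram of the range between sample numbers (highest minus lowest mean, log2(FPKM + 0.1)) over the 20795 genes tested, with red lines at the 9 genes and a dashed line at the median of all. Of the 9, 8 lie below the median of 0.55 and Kdm4d lies at 0.92.

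Each number was then set against the mean of the other 3 within the same fit. These 4 contrasts share their samples, so a gene high in 1 number tends to be low in the rest, and the contrasts do not support each other. Of the 9 genes, 5 were higher and 2 lower in 186wt, where 14.8% and 21.9% of all genes tested were higher and lower. In 343wt 4 were higher and 3 lower (14.5% and 25.6% of all genes). In 444wt 4 were higher and 4 lower (26.5% and 17.8%). In 456wt none of the 9 was higher and 4 were lower (22.9% and 13.6%). These shares were larger among genes that reached a mean of 1 FPKM, in a fit restricted to them. There 21.3% were higher and 31.1% lower in 186wt, and 20.5% and 35.6% in 343wt. For 444wt they were 36.7% and 23.8%, and for 456wt 30.7% and 19.5%. Dividing the libraries by median-of-ratios factors, in place of the deposited scaling, moved 444wt down against 343wt by 0.10 on the log2 scale and evened the split of all genes, to 18% higher and 17.4% lower in 186wt, 19.5% and 18.1% in 343wt, 19.5% and 22.2% in 444wt, and 18.2% and 17.3% in 456wt. The counts of the 9 genes became 7 higher and 2 lower, 5 and 3, 4 and 4, and 0 and 6. No difference that had passed turned its sign, and 3 that had not passed did so without passing (Kdm1a in 343wt, Kdm3b in 444wt and Kdm3a in 456wt).

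Leaving out either replicate 1 or replicate 2 of 186wt lowered the count of genes higher in 186wt from 5 to 3. With sample number 444wt left out, none was lower in 186wt and 2 were higher in 456wt.

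**Figure D4:**
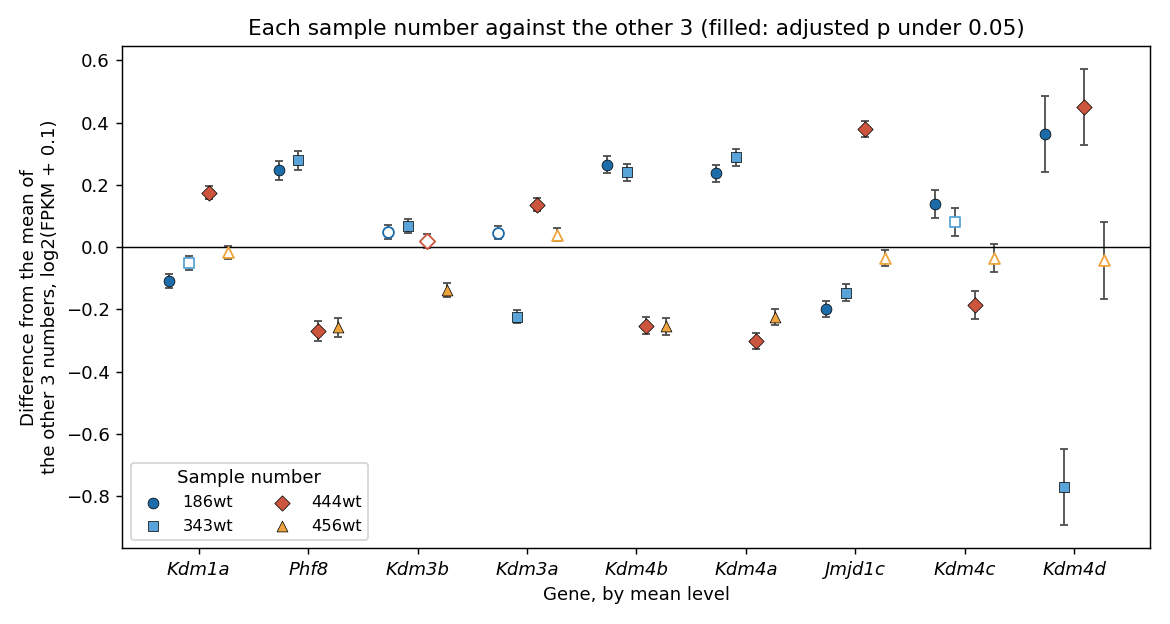
Difference of each sample number from the mean of the other 3 on the log2(FPKM + 0.1) scale, with bars of ± 1 standard error from the limma fit. Filled symbols passed the adjusted threshold of 0.05 and open symbols did not; Phf8, Kdm4b and Kdm4a have 2 numbers above and 2 below the line, and the largest difference is that of Kdm4d in 343wt.

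Phf8 read 53.9, 55.3 and 52.7 FPKM in the libraries of 186wt, and 56.4, 52.2 and 56.2 FPKM in those of 343wt. The libraries of 444wt read 41.7, 39.8 and 42.2 FPKM, those of 456wt 42.7, 40.0 and 41.8 FPKM. The libraries of the first pair of numbers all lay above those of the second. How many of all genes have libraries that separate by number was not counted. Such a separation, here and for the genes below, is therefore not shown to be particular to them. On the log2 scale Phf8 was 0.25 ± 0.03 (difference ± SE) higher in 186wt and 0.28 ± 0.03 higher in 343wt than the mean of the others, and it fell by 0.27 ± 0.03 in 444wt and by 0.26 ± 0.03 in 456wt (adjusted p = 2.29e-05 to 6.84e-05; F-test 1.50e-06). From its highest to its lowest number the level differed 1.33-fold.

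Kdm4a, which acts on H3K9 and H3K36, had the same split. The libraries of 186wt held 31.7, 29.8 and 30.4 FPKM, and those of 343wt 31.3, 30.6 and 32.4 FPKM. Lower values of 23.2, 23.2 and 22.9 FPKM were found for 444wt, and of 23.8, 24.6 and 23.8 FPKM for 456wt. No library of 444wt or 456wt reached the level of any library of 186wt or 343wt. The differences of the 4 numbers were 0.24, 0.29, -0.30 and -0.22 on the log2 scale, each with an SE of 0.03 (F-test, adjusted p = 4.36e-07).

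Kdm4b, next above Kdm4a in mean level, had 31.9, 31.9 and 31.8 FPKM in the libraries of 186wt, and 31.9, 30.8 and 31.7 FPKM in those of 343wt. Against these stood 23.6, 23.8 and 25.7 FPKM for 444wt, with 24.0, 24.2 and 24.7 FPKM for 456wt. Again these sets of libraries did not overlap. Its differences were 0.27, 0.24, -0.25 and -0.25 on the log2 scale, each with an SE of 0.03 (F-test, adjusted p = 8.10e-07). All calls for Phf8, Kdm4a and Kdm4b held when any library or any sample number was left out, with sizes of 0.14 to 0.42 when a number was left out.

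Kdm4c stood at 10.1, 9.80, 8.52 and 9.21 FPKM in 186wt, 343wt, 444wt and 456wt (means of 3 libraries). Its spread was small: the highest and lowest numbers differed 1.19-fold, and libraries of 343wt (9.10 to 10.3 FPKM) overlapped those of 456wt (8.98 to 9.33 FPKM). It was lower in 444wt by 0.19 ± 0.04 on the log2 scale (adjusted p = 0.00532) and higher in 186wt by 0.14 ± 0.04 (adjusted p = 0.0290). The second call was lost without any 1 of the 3 libraries of 186wt (adjusted p = 0.0547 to 0.107). In 343wt the difference of 0.08 ± 0.04 did not pass (adjusted p = 0.176), but did without replicate 3 of 343wt (0.13, adjusted p = 0.0417). Without sample number 444wt the F-test for Kdm4c did not pass (adjusted p = 0.159).

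Kdm4d departed from the rest of its family. The libraries of 343wt read 1.07, 0.76 and 0.92 FPKM. Those of 186wt read 1.85, 1.77 and 1.55 FPKM, those of 444wt 1.96, 1.66 and 1.80 FPKM, and those of 456wt 1.49, 1.47 and 1.18 FPKM. All 3 libraries of 343wt lay below those of every other number, while 186wt and 444wt overlapped. Kdm4d was lower in 343wt by 0.77 ± 0.12 on the log2 scale (adjusted p = 0.000386) and higher in 444wt by 0.45 ± 0.12 (adjusted p = 0.0112) and in 186wt by 0.36 ± 0.12 (adjusted p = 0.0381). With a pseudocount of 1 these differences were -0.46, 0.28 and 0.22 and passed as well. The values rest on about 30 to 73 fragments per library, estimated from the FPKM steps, and the spread of libraries within a number (coefficient of variation 10.8%) was close to the 13.7% of counting error alone. Other genes had a spread near or below this error too. It was 1.26% against 2.23% for Kdm3a, 1.67% against 1.78% for Kdm1a and 2.55% against 2.46% for Kdm4a. Jmjd1c had slightly more (1.93% against 1.73%) and Phf8 clearly more (3.16% against 1.57%). The limma p-values thus rest largely on a spread of about the size of counting error.

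Of the calls for Kdm4d, only that in 343wt held with any library left out. The call of Kdm4d in 444wt was lost without replicate 1 of 444wt (0.39, adjusted p = 0.0603). That in 186wt was lost when any 1 of 7 libraries was left out: replicates 1 and 2 of 186wt, 2 and 3 of 343wt, 2 and 3 of 444wt, and 3 of 456wt (0.31 to 0.37, adjusted p = 0.0512 to 0.143). Without sample number 444wt the difference in 186wt was 0.58 (adjusted p = 0.0132). It did not pass without 343wt (0.12, adjusted p = 0.470) or without 456wt (0.39, adjusted p = 0.0513). The difference in 444wt did not pass without 343wt either (0.22, adjusted p = 0.197). Without sample number 343wt the F-test for Kdm4d did not pass (adjusted p = 0.0964). The ratio of Kdm4a to Kdm4d, both per length, was 17.8, 34.3, 12.8 and 17.4 in 186wt, 343wt, 444wt and 456wt. RSEM divides fragments among transcripts that match equally well, so levels of near-identical stretches of the family are less certain than the rest.

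Jmjd1c, a gene needed for the upkeep of spermatogonia in ageing mice, read 32.4, 31.9 and 32.95 FPKM in the libraries of 444wt. Those of 186wt read 24.0, 23.2 and 24.9 FPKM, those of 343wt 24.4, 25.3 and 24.4 FPKM, and those of 456wt 26.7, 26.0 and 25.8 FPKM. Sample 444wt stood clear of all others. Jmjd1c was higher there by 0.38 ± 0.03 on the log2 scale (adjusted p = 4.11e-07) and lower in 186wt by 0.20 ± 0.03 and in 343wt by 0.15 ± 0.03 (adjusted p = 9.99e-05 and 0.000882). The difference in 343wt was -0.08 under median-of-ratios scaling (adjusted p = 0.0379) and -0.24 without 186wt (adjusted p = 4.32e-05). With 444wt left out, neither of the differences of 186wt and 343wt passed (-0.08, adjusted p = 0.0694, and -0.02, adjusted p = 0.632), and 456wt became higher than the other 2 by 0.10 (adjusted p = 0.0192), where it had been at -0.03 ± 0.03 with 444wt in the fit.

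Kdm1a, the catalytic subunit of the CoREST complex, held 83.6, 80.9 and 82.0 FPKM in the libraries of 444wt. Those of 186wt held 71.4, 68.3 and 73.1 FPKM, those of 343wt 71.7, 74.0 and 73.6 FPKM, and those of 456wt 74.1, 73.3 and 75.8 FPKM. All libraries of 444wt lay above those of the other numbers, and 343wt overlapped both 186wt and 456wt. Kdm1a was higher in 444wt by 0.18 ± 0.02 on the log2 scale (adjusted p = 5.16e-05) and lower in 186wt by 0.11 ± 0.02 (adjusted p = 0.00227). Under median-of-ratios scaling these became 0.11 and -0.07 (adjusted p = 0.00194 and 0.0371), and its range between numbers fell from 0.21 to 0.13. Its difference of -0.05 ± 0.02 in 343wt did not pass (adjusted p = 0.0901), but did without replicate 2 of 186wt (-0.06, adjusted p = 0.0271). With 444wt left out, the F-test for Kdm1a did not pass (adjusted p = 0.162).

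Kdm3a and Kdm3b complete the KDM3 family. Kdm3a had means of 30.03, 26.1, 31.5 and 29.9 FPKM in 186wt, 343wt, 444wt and 456wt, and its 3 libraries of 343wt (25.6 to 26.5 FPKM) were below all others. It was lower in 343wt by 0.22 ± 0.02 on the log2 scale (adjusted p = 6.63e-06) and higher in 444wt by 0.14 ± 0.02 (adjusted p = 0.000272). The difference in 444wt was 0.07 under median-of-ratios scaling and also with 343wt left out (adjusted p = 0.0210 and 0.0432). With 343wt left out the F-test for Kdm3a did not pass (adjusted p = 0.0808). Kdm3b had means of 31.2, 31.5, 30.8 and 28.3 FPKM, with the 3 libraries of 456wt (27.9 to 28.8 FPKM) below all others.

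Kdm3b was lower in 456wt by 0.14 ± 0.02 (adjusted p = 0.000526), and without 456wt its F-test did not pass (adjusted p = 0.583). A difference of 0.07 ± 0.02 in 343wt passed narrowly (adjusted p = 0.0325). It was lost without replicate 2 of 186wt, any 1 replicate of 343wt or replicate 2 of 456wt (0.06 to 0.07, adjusted p = 0.0518 to 0.131), and grew to 0.14 under median-of-ratios scaling (adjusted p = 0.000519).

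The sums of marker lists for the cell types of the testis moved with the sample numbers too. All 9 Sertoli cell genes, among them Sox9, Amh and Wt1, were higher in 186wt and in 343wt and lower in 444wt and in 456wt. Of all genes tested, 14.8% were higher in 186wt, 14.5% higher in 343wt, 17.8% lower in 444wt and 13.6% lower in 456wt. Among genes that reached 1 FPKM these shares were 21.3%, 20.5%, 23.8% and 19.5%. The summed levels of the Sertoli genes were 4399, 4570, 2549 and 2723 FPKM. Their split is that of Phf8, Kdm4a and Kdm4b. Clu alone averaged 1844 FPKM, and none of the 9 Sertoli genes was at or near 0 in these samples labelled as spermatocytes. The 9 spermatogonial genes summed to 659, 693, 947 and 821 FPKM. In 444wt 8 of 9 were higher, as were 26.5% of all genes and 36.7% of those that reached 1 FPKM. The part of these differences in those of the demethylases was not tested, and in bulk RNA fewer cells of a type and less RNA per cell cannot be told apart.

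Of 13 genes of meiotic prophase, 12 were found. All 12 were lower in 343wt and 11 were higher in 444wt, as were 25.6% and 26.5% of all genes tested. Among genes that reached 1 FPKM these shares were 35.6% and 36.7%. They summed to 435, 350, 572 and 408 FPKM in 186wt, 343wt, 444wt and 456wt. Kdm4d and Kdm3a were lowest and highest in the same numbers. Leydig cell genes (6, summing to 56.5, 110, 16.1 and 60.9 FPKM) were all highest in 343wt. The peritubular myoid genes (5, summing to 533, 253, 670 and 1112 FPKM) were all highest in 456wt. Macrophage genes (5) summed to 4.69 to 19.4 FPKM and endothelial genes (5) to 13.3 to 33.5 FPKM. Genes of round spermatids, cells that arise later than 12 dpp, summed to 3.69 to 6.10 FPKM over 8 genes, with Prm2 and Catsper1 listed at 0 in all 12 libraries. The part of these cell types in the levels of the demethylases was not tested.

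**Figure D5:**
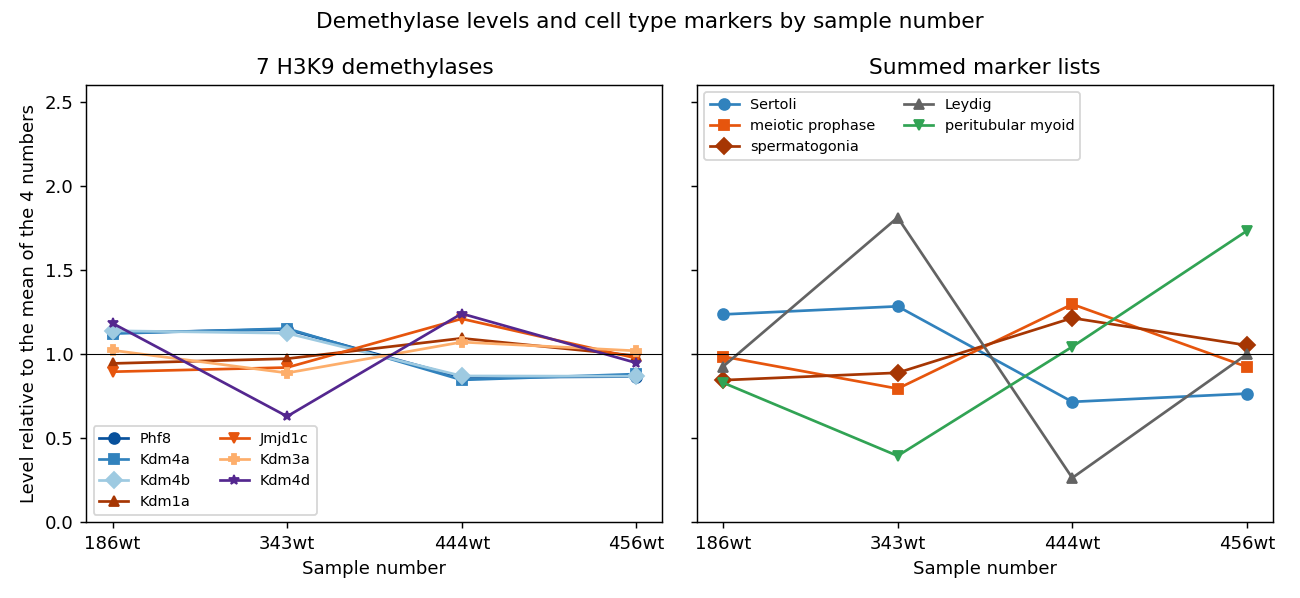
Left, mean level of 7 of the 9 genes in each sample number; right, summed level of 5 lists of cell type markers; both are divided by their mean over the 4 numbers, so 1 is the mean. Phf8, Kdm4a and Kdm4b lie above 1 in 186wt and 343wt, as the Sertoli list does, and Kdm4d and the meiotic prophase list are both lowest in 343wt and highest in 444wt.

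Other genes of H3K9 methylation were counted from lists set by gene symbol. The 3 further H3K9 demethylases all passed the F-test, where 58.2% of all genes and 77.6% of those that reached 1 FPKM did. Jhdm1d (KDM7A), a relative of PHF8, had 42.0, 46.4, 31.8 and 27.0 FPKM in 186wt, 343wt, 444wt and 456wt. Phf2, another relative, had 9.37, 9.42, 7.74 and 9.48 FPKM. Hr (Hairless) had 6.93, 7.59, 5.22 and 7.20 FPKM. All 3 were lower in 444wt, as were Phf8 and 3 of the 4 KDM4 genes. The share lower there was 17.8% of all genes and 23.8% of those that reached 1 FPKM.

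Of the 7 H3K9 methyltransferases, 7 passed, where 58.2% of all genes and 77.6% of those that reached 1 FPKM did. All 7 were higher in 444wt, as were 26.5% of all genes and 36.7% of those that reached 1 FPKM. Under median-of-ratios scaling 5 of the 7 were higher, and 19.5% of all genes. Ehmt2 (G9a), which makes H3K9me2, had the highest level, with 141, 140, 176 and 162 FPKM. Setdb1 had 48.7, 47.4, 61.1 and 50.9 FPKM, and the X-linked Suv39h1 33.5, 31.3, 46.2 and 34.7 FPKM. Of the HP1 genes, which encode readers of the mark, Cbx3 and Cbx5 passed the F-test (Cbx3 alone under median-of-ratios scaling), and Cbx1 did not (adjusted p = 0.117), with 50.6, 49.2, 52.9 and 51.1 FPKM. The median range was 0.37 on the log2 scale for the methyltransferases and 0.20 for the HP1 genes.

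Partners of KDM1A were split. Of 11 genes, 9 passed, where 58.2% of all genes and 77.6% of those that reached 1 FPKM did. In 444wt 5 were higher and 3 lower, against 26.5% and 17.8% of all genes (4 and 5 under median-of-ratios scaling, against 19.5% and 22.2%). Of genes that reached 1 FPKM, 36.7% were higher and 23.8% lower in 444wt. Rcor1 and Rcor2 encode alternative CoREST scaffolds. Rcor1 had 21.8, 23.6, 14.0 and 15.4 FPKM, and Rcor2 33.3, 35.6, 51.4 and 45.5 FPKM, so the first was lower and the second higher in 444wt and 456wt. The histone deacetylase genes Hdac1 (67.0, 68.5, 86.8 and 80.4 FPKM) and Hdac2 (97.1, 104, 111 and 105 FPKM) were higher in 444wt, as Kdm1a was; under median-of-ratios scaling the call for Hdac2 was lost. Phf21a was among those that did not pass the F-test.

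Of the 9 demethylases of other lysines that were tested, 8 passed, where 58.2% of all genes and 77.6% of those that reached 1 FPKM did. In 444wt 7 of the 9 were higher, against 26.5% of all genes (4 of 9 under median-of-ratios scaling, against 19.5%). The share higher in 444wt among genes that reached 1 FPKM was 36.7%. Kdm5a, which acts on H3K4, had 58.4, 56.9, 73.9 and 61.4 FPKM. Its X-linked relative Kdm5c had 29.99, 29.9, 22.1 and 21.7 FPKM and was the single one that was lower there. The Y-linked Kdm5d was listed at 0 in all 12 libraries and was not tested, and Uty, also Y-linked, did not pass. How reads of Y-linked genes were assigned was not examined, so this 0 is not taken as absence of Kdm5d mRNA. The spermatid genes Tnp1 (0.413, 0.703, 1.78 and 0.940 FPKM) and Prm1 (0.057, 0.097, 0.440 and 0.057 FPKM), known as KDM3A targets, were both higher in 444wt, as 26.5% of all genes were. Prm1 was at 0 in 5 of 12 libraries, and under median-of-ratios scaling the F-test call for Tnp1 was lost. Kdm3a had 31.5 FPKM in 444wt, against 30.03 in 186wt, 26.1 in 343wt and 29.9 in 456wt. A link between Kdm3a and these genes was not tested.

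For each demethylase, the protein-coding gene whose profile over the 12 libraries was most like it was found among 13089 candidates whose mean reached 1 FPKM, as the smallest root mean square difference of log2 values after subtracting each gene's mean. The smallest of 13089 distances lies below their median by the way it is chosen, so the medians give a scale only. Kdm1a was closest to Zmym2 (0.028, against a median of 0.19 over all candidates) and Jmjd1c to Supt16h (0.034 against 0.22). The second genes were almost as near, Dhx8 for Kdm1a (0.028) and Ipo5 for Jmjd1c (0.037). Phf8 and Kdm4b were both closest to Fzd6 (0.037 and 0.026, against 0.30 and 0.29), and Kdm4a to Cited2 (0.028 against 0.30). Kdm3a was closest to Rbm5 (0.032), Kdm3b to Pgp (0.025) and Kdm4c to Sec62 (0.046). Kdm4d had no gene as near, and its closest was Gm364 (0.14 against 0.41). Its own values rest on about 30 to 73 fragments per library, with a counting error of 13.7%. The part of this error in the distance was not tested. Gm364 had 59.3, 31.2, 60.1 and 47.7 FPKM in 186wt, 343wt, 444wt and 456wt, so it was lowest in 343wt. The 12 libraries come from 4 samples, so these values describe the libraries.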

How the data were processed

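RNA-seq was made from enriched germ cells of C57BL/6J males at 12 dpp, as 12 libraries with 4 sample numbers. The authors aligned 100-bp paired reads to the NCBI build 37 transcriptome with Bowtie 0.12.9, removed reads with 2 or more mismatches and deposited FPKM values from RSEM 1.2.8 (fragment length 280 ± 50 bp), rounded to 2 decimals. Depth was estimated here from the smallest FPKM steps of 120 single-transcript genes of 300 to 500 bp, as 13.0 to 18.1 M (mega) fragments per library, so that 1 FPKM is about 15.1 fragments per kilobase at the median. Such counts cover counting error only.

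Of 37620 gene identifiers, 37205 were placed with GENCODE M1. Averaging the 3 libraries of each number gave 1 replicate for levels, shares and order. For differences between numbers, limma 3.58.1 (R 4.3.3; lmFit, then eBayes with trend; Benjamini-Hochberg adjustment over all genes tested) was run on the 12 libraries, which served as replicates within a number (8 residual degrees of freedom), as log2(FPKM + 0.1), which understates changes of low genes. The exact tests were run in Python 3.11.15 by listing every sign pattern, and scipy 1.17.1 served the depth estimate. The scripts were tested on simulated data. Alternatives were pseudocounts of 0.01 and 1, other filters on low values, 2 other scalings of libraries, a replicate block, medians, and leaving out each library or sample number. Genes named are the 9 demethylases, the listed genes, and for each demethylase the genes of most similar profile. Some genes that this rule covers are not reported here. The genes, lists and tests were chosen with earlier results of these data known.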

Additional observations from a re-analysis of the deposited data

How the results depend on the processing

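Each result was recomputed under every alternative that applied to it. The number of genes that passed the F-test, 12107, lay between 9848 (without sample number 444wt) and 12146 (pseudocount of 1), and all 9 demethylases passed in each setting that kept all 4 numbers. Median-of-ratios scaling turned the sign of 3 demethylase contrasts that passed in neither scaling and brought 5 others past the threshold, while 1 HP1 gene and 1 KDM3A target passed in place of 2 each. With a mean of at least 1 FPKM, 0 of the KDM3A targets was left to pass. Leaving out a sample number turned the sign of 8 demethylase contrasts that had not passed, and 1 of them then passed. Over the samples left out, on the log2 scale, that contrast (Jmjd1c in 456wt) ranged from -0.11 to 0.10, Kdm4a minus Jmjd1c from -0.087 to 0.19, Kdm3b minus Kdm3a from -0.018 to 0.10 and Kdm3a minus Kdm4b from -0.019 to 0.19. With 3 numbers left, the exact test of neighbours cannot give a p below 0.25.

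Library suffixes 1 to 3 gave no sign of pairing: deviations of same-suffix libraries correlated at -0.065 to 0.13, and 5 of 12 libraries were best matched by one of their own suffix. With the suffix as a replicate block 11774 genes passed, and Kdm3b in 343wt was lost (adjusted p = 0.0564). Kdm4d had the fewest fragments, 30 to 73 per library, and the next, Kdm4c, 449 to 668.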
